A study of Mus musculus with 6 samples.

Results

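The vacuolar ATPase (V-ATPase) and the genes of cellular iron handling were followed in 4T1 cells treated with P3FI-90. Members were chosen by gene symbol: every gene whose symbol begins with Atp6v or Atp6ap, together with Tcirg1, the lysosomal channel gene Mcoln1 and 16 named genes of iron uptake, storage, export and regulation. The choice gave 43 of the 22116 named genes in the count table, namely 26 pump genes, 16 iron genes and Mcoln1. The theme was picked with the fold changes of the same contrast in view, so the members' changes are given below as a description and support no further statement.

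4T1 is a mouse mammary carcinoma line of epithelial origin that is used as a model of triple-negative breast cancer. Cultured cells received DMSO, the vehicle, or 10 µM P3FI-90, an inhibitor of the histone demethylase KDM3B, and all cells were harvested at 24 h. RNA-seq was made from 3 libraries per group. The libraries come from 1 cell line, 1 dose and 1 time, and the labels do not say whether the 3 libraries of a group were separate cultures, so the spread between them may be technical.

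The V-ATPase is a rotary proton pump that acidifies lysosomes, endosomes and secretory vesicles. Its cytosolic V1 sector (subunits A to H) hydrolyses ATP, and its membrane V0 sector (subunits a, c, c'', d and e) carries protons across the membrane, with the 2 accessory proteins Atp6ap1 and Atp6ap2 attached to V0. Acid is needed to free iron from transferrin inside endosomes: the transferrin receptor Tfrc brings iron-loaded transferrin into the cell, STEAP reductases convert ferric to ferrous iron, and Slc11a2 (DMT1) or the channel Mcoln1 passes the ferrous iron to the cytosol. Ferritin, built from Fth1 and Ftl1 chains, stores iron, Ncoa4 delivers ferritin to the lysosome, and ferroportin, encoded by Slc40a1, exports iron. Iron regulatory proteins, encoded by Aco1 and Ireb2, bind stem-loops called iron-responsive elements (IREs) in the messenger RNAs of several of these genes, and Fbxl5 directs their degradation when iron is plentiful.

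Counts on named genes summed to between 31327094 and 37395732 per library, and edgeR's filterByExpr kept 12288 genes for testing. Values are normalized counts, meaning counts brought to a common depth with edgeR's TMM factors, unless another unit is named. A gene was called where edgeR's quasi-likelihood test gave a Benjamini-Hochberg adjusted p under 0.05 over these 12288 genes. The test called 39.9% of all genes higher and 39.4% lower after P3FI-90, and in 81.2% of all genes the 3 libraries of one group lay entirely above or below those of the other. With a log2 fold change of at least 1 as a further condition 12.7% of genes were higher, and with one of -1 or less 10.6% were lower. All 6 mammary epithelial markers examined (Epcam, Krt7, Krt8, Krt18, Krt19 and Cdh1) were abundant and all 6 were lower after P3FI-90, with summed normalized counts of 149858 to 158390 in DMSO and 62410 to 65543 in P3FI-90. Most markers of cells that carry specialised V-ATPases or handle much iron were scarce, but Acp5 and Cd68 were not, with DMSO means of 826 and 382. The 7 leukocyte and macrophage markers summed to 396 to 496 in DMSO and 405 to 512 in P3FI-90, mostly from Cd68, with Adgre1 at 0. Among them Csf1r, a macrophage receptor, counted 34.4, 62.6 and 27.6 in DMSO and 107, 132 and 125 in P3FI-90, a rise of 1.56 ± 0.29 on the log2 scale (edgeR adjusted p = 2e-04). The 6 osteoclast markers summed to 785 to 866 and 619 to 715, mostly from Acp5, with Ocstamp at 0. Ctsk, which was not tested, counted 0, 0 and 0 in DMSO and 4.68, 7.19 and 20.6 in P3FI-90. The 4 markers of kidney intercalated cells summed to at most 12.1 in any library, with Foxi1 at 0. The 3 endothelial markers summed to 0 to 13.3 in DMSO and 21.6 to 26.4 in P3FI-90, mostly from Pecam1. Pecam1 had 0, 0 and 13 counts in DMSO and 20, 17 and 27 in P3FI-90, and passed the filter only with its P3FI-90 libraries. Its log2 fold change of 2.10 ± 0.849 is given as a description only. The 4 fibroblast markers summed to 1412 to 1441 in DMSO and 972 to 1065 in P3FI-90, mostly from Pdgfra. Pdgfra had a mean of 1355 in DMSO and 958 in P3FI-90, with a log2 fold change of -0.50 ± 0.062 (edgeR adjusted p = 4.12e-06). The part of these markers in the results below was not tested.

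Most tested pump genes were higher after P3FI-90, while the iron genes divided between higher and lower about as all genes tested did. Among the 26 pump genes 21 were tested, of which 17 were higher, 1 was lower and 3 were neither, and 11 of them were higher by a log2 fold change of at least 1. One of the 11, Atp6v0a4, had 13, 7 and 15 counts in DMSO and passed the filter only with its P3FI-90 libraries. With at least 10 counts required in every library it was not tested, and the pump median was 0.95. Among the 16 iron genes 14 were tested, of which 6 were higher, 5 lower and 3 neither, with 2 beyond a log2 fold change of 1 in each direction. The libraries of both groups did not overlap in 19 of the 21 pump genes and 11 of the 14 iron genes. Over all genes tested, 39.9% were higher, 39.4% were lower and 81.2% did not overlap, and the iron genes lay near these shares. The median log2 fold change was 1.08 over the tested pump genes, -0.05 over the tested iron genes and 0.01 over all genes tested. The pump median exceeded the iron median by 1.12. In single libraries the median log2 ratio to the DMSO mean was 1.11, 1.04 and 1.08 for pump genes and -0.02, -0.10 and -0.02 for iron genes in the 3 P3FI-90 libraries. The pump genes together took 0.128% to 0.131% of all counts in the DMSO libraries and 0.288% to 0.291% in the P3FI-90 libraries. Scaling libraries by their total counts alone raised the median of all genes to 0.23 and gave 18 pump genes higher and 0 lower and 8 iron genes higher and 5 lower. Among all called genes, 50.3% were higher with TMM and 62.9% with total counts. In bulk RNA, fewer cells of a type and less RNA per cell cannot be told apart.

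**Figure D1:**
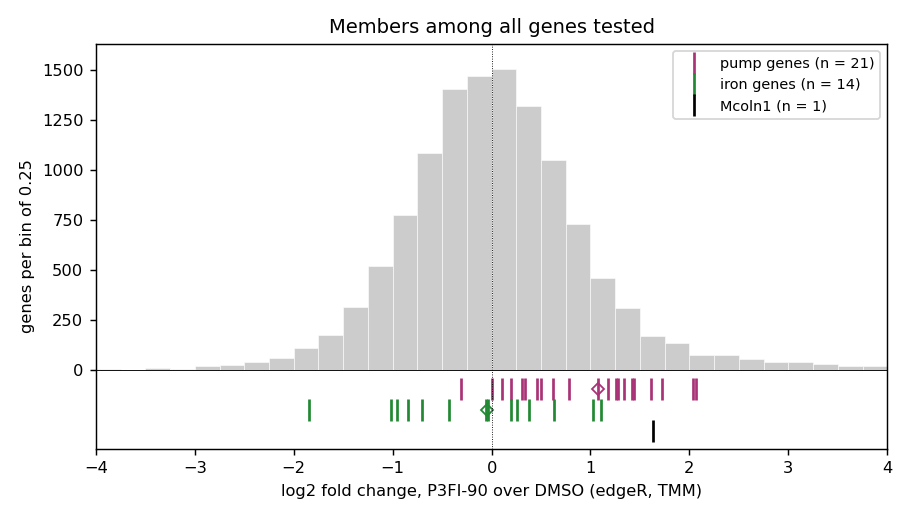
Histogram of the log2 fold change (x axis, P3FI-90 over DMSO) of the 12288 genes tested, as the number of genes per bin (y axis), with ticks below for the 21 pump genes, the 14 iron genes and Mcoln1 and open diamonds at the median of each group. The pump median lies at 1.08 and the iron median at -0.05, while all genes centre on 0.01.

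The 7 members that were not tested carried few or no reads. Atp6v1b1, the B subunit gene of kidney intercalated cells, had 4 counts in 1 DMSO library and 0 in the other 5. Atp6v1e2, Atp6v1g3, Atp6v0d2, Atp6ap1l, Tfr2 and Heph were at 0 in all 6 libraries. Atp6v0d2 is the osteoclast form of subunit d, Atp6v1e2 the testis form of subunit E, and Atp6v1g3 a form of subunit G found in kidney. Tfr2 is a transferrin receptor of liver and erythroid cells and Heph a ferroxidase of the gut. None of these 7 genes enters the counts of called genes or the medians.

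In the membrane sector V0 lay the genes with the highest rises, Atp6v0d1 and Atp6v0b. Of its 9 tested genes 8 were higher and 1 was lower, and the median of their log2 fold changes was 1.26. Atp6v0d1 (ENSMUSG00000013160) encodes the ubiquitous subunit d, which couples the V0 ring to the central stalk. Its normalized counts were 1497, 1487 and 1438 in DMSO and 6332, 6018 and 6196 in P3FI-90. The groups lay far apart, and the log2 fold change was 2.07 ± 0.0417 (SE, n = 3 per group), or 4.19-fold. Atp6v0b (ENSMUSG00000033379), the gene of the proton-binding c'' subunit, counted 1934, 1719.8 and 1738 in DMSO and 7615, 7288.5 and 7203 in P3FI-90. Its log2 fold change of 2.03 ± 0.0476 was close to that of Atp6v0d1. For Atp6v0b, 8.59% of the 50-base windows of its transcripts also occur in other genes, mainly in the antisense gene Gm12841, and the strandedness of the counting is not given in the sources used here.

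The other proteolipid gene, Atp6v0c, encodes subunit c, of which the ring holds several copies. It counted 4221, 4331 and 4418 in DMSO and 6455.5, 6990.0 and 6431 in P3FI-90. Its log2 fold change of 0.62 ± 0.0406 was smaller than that of Atp6v0b, and 10.8% of its windows are shared, mostly with the pseudogene Atp6v0c-ps2. Subunit e, a small membrane protein, is encoded by Atp6v0e and Atp6v0e2. Atp6v0e counted 2546, 2647 and 2663 in DMSO and 3249.7, 3342 and 3316 in P3FI-90, a rise of 0.33 ± 0.0434 (log2). The rarer Atp6v0e2 counted 65.8, 101 and 60.2 in DMSO and 167.5, 182 and 161 in P3FI-90, a rise of 1.18 ± 0.219. Neither gene's groups overlapped, and the second DMSO library was the highest of the 3 for Atp6v0e2.

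Subunit a, which forms the proton half-channels and directs the pump to a compartment, is encoded by 4 genes, and these did not move together. Atp6v0a1 counted 917, 891 and 1034 in DMSO and 2561, 2483 and 2585 in P3FI-90. Atp6v0a2, found on Golgi and endosomes, counted 1613, 1564.5 and 1626 in DMSO and 3850.4, 3849 and 3824 in P3FI-90. Both rose, by 1.42 ± 0.06 and 1.26 ± 0.0447 on the log2 scale. Tcirg1 (ENSMUSG00000001750), the a3 gene of lysosomes and of the osteoclast plasma membrane, counted 4288, 3896 and 4286.5 in DMSO and 3257, 3462 and 3375 in P3FI-90. It was the one pump gene called lower, with a log2 fold change of -0.31 ± 0.0467, a call that was lost with scaling by total counts, where its log2 fold change was -0.09 (edgeR adjusted p = 0.0872). Atp6v0a4, the kidney a4 gene, was near the limit of detection, with 13.2, 8.43 and 15.3 normalized counts in DMSO and 44, 46.8 and 33.3 in P3FI-90. Its log2 fold change of 1.73 ± 0.403 had a large error, and its exons overlap those of D630045J12Rik on the same strand, which had 475 to 635 counts per library. For Atp6v0a2, 8.35% of windows are shared, mainly with an antisense gene.

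The relative supply of subunit a transcripts shifted with these changes. Per kilobase of transcript, Tcirg1 made up 70.0% ± 0.74 (SD, n = 3) of the subunit a level in DMSO and 42.8% ± 0.915 in P3FI-90. Atp6v0a1 went from 13.1% ± 0.674 to 26.5% ± 0.713 and Atp6v0a2 from 16.7% ± 0.501 to 30.3% ± 0.347. Atp6v0a4 made up 0.191% ± 0.0467 and 0.489% ± 0.0846. No library of one group overlapped the other for any of the 4 genes, and a share within a library does not depend on how libraries are scaled. The shares are given as a description, with no test. In both groups Tcirg1 remained the most abundant of the 4 per length, whereas in raw counts the share of Atp6v0a2 in P3FI-90 (39.2%) exceeded that of Tcirg1 (34.4%). Subunit e shifted less, from 94.4% ± 1.51 to 90.4% ± 0.498 for Atp6v0e. For subunit C, Atp6v1c1 went from 96.9% ± 0.566 to 98.5% ± 0.297, and for subunit G, Atp6v1g1 went from 99.4% ± 0.131 to 99.6% ± 0.0411.

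**Figure D2:**
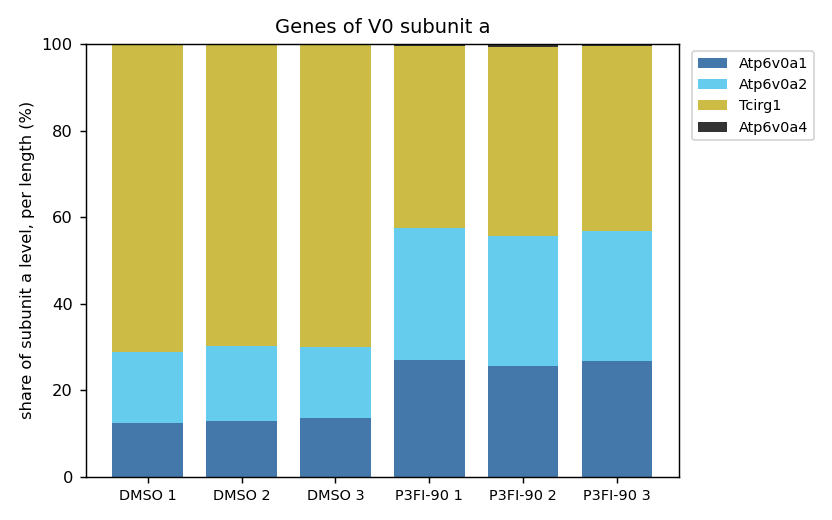
Share of each of the 4 subunit a genes in their summed level per transcript length (y axis, %), with 1 stacked bar per library (x axis). Tcirg1 held 69.5% to 70.9% in the DMSO libraries and 41.9% to 43.7% in the P3FI-90 libraries, and Atp6v0a1 and Atp6v0a2 held more.

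In the cytosolic sector V1, 10 of 13 genes were tested, of which 7 were higher and 3 were neither, with a median log2 fold change of 0.64. The catalytic core consists of alternating A and B subunits. Atp6v1a, for subunit A, counted 5383, 5875 and 5512 in DMSO and 8115, 7831 and 7737 in P3FI-90. Atp6v1b2, for the ubiquitous subunit B, counted 4204, 4310.4 and 4191 in DMSO and 11592, 11281 and 11502 in P3FI-90. Although A and B occur in equal numbers in the pump, the log2 fold changes of their genes were 0.50 ± 0.0395 and 1.44 ± 0.0333. Atp6v1d encodes subunit D of the rotating stalk and counted 1928, 1797 and 1739 in DMSO and 4659.8, 4485 and 4724 in P3FI-90. Its stalk partner subunit F, encoded by Atp6v1f, counted 1878, 2116 and 1981 in DMSO and 2622, 2781 and 2808 in P3FI-90. Both rose, by 1.34 ± 0.049 for Atp6v1d and by 0.46 ± 0.0555 for Atp6v1f.

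Subunits C and H govern the joining of V1 to V0. Atp6v1c1 counted 3641, 3729.9 and 3374 in DMSO and 8841.5, 8483 and 8793 in P3FI-90. Atp6v1h counted 2216, 2277 and 2262 in DMSO and 4852, 4616 and 4769.7 in P3FI-90. Their log2 fold changes were 1.28 ± 0.0416 and 1.08 ± 0.0413, and neither gene's groups overlapped. The exons of Atp6v1h overlap those of Rgs20 on the opposite strand, which had between 75 and 153 counts per library. The second C gene, Atp6v1c2, counted 100.2, 73.5 and 95.9 in DMSO and 80.5, 111.5 and 118.5 in P3FI-90, with overlapping groups and no call (log2 fold change 0.20 ± 0.23). Its exons overlap those of Pdia6 on the opposite strand, which had between 7114 and 12194 counts per library, though only 0.0415% of its windows are shared. Subunits E and G form the outer stalks of V1. Atp6v1e1 counted 2191, 2194 and 2206.5 in DMSO and 2398, 2447.5 and 2248 in P3FI-90, and its log2 fold change of 0.11 ± 0.0498 missed the threshold (edgeR adjusted p = 0.0648). Atp6v1g1 counted 3385, 3213 and 3261 in DMSO and 5486, 5683.5 and 5771 in P3FI-90, a rise of 0.78 ± 0.038. The neuronal form Atp6v1g2 stayed between 26.5 and 42.5 in all 6 libraries, and its exons overlap those of Nfkbil1 on the opposite strand. Atp6v1g1 and Atp6v1f share 19.2% and 11.2% of their windows with other genes.

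The accessory genes both rose, to different degrees. Atp6ap2, the (pro)renin receptor, which is needed to assemble the pump, counted 2227, 2529 and 2280.0 in DMSO and 7483, 6633 and 7343 in P3FI-90. Atp6ap1, also known as Ac45, counted 4330.2, 4533 and 4272 in DMSO and 5264, 5633 and 5362 in P3FI-90. The log2 fold changes were 1.61 ± 0.055 and 0.31 ± 0.0391. Mcoln1 (ENSMUSG00000004567), which encodes the lysosomal channel TRPML1 that releases calcium and ferrous iron, counted 1079.8, 1048 and 1035 in DMSO and 3197, 3429 and 3195.5 in P3FI-90. Its log2 fold change of 1.63 ± 0.0523 was nearer to those of the strongly raised pump genes than to those of the iron genes. For every 100 counts of Tcirg1 there were 25.2, 26.9 and 24.1 counts of Mcoln1 in the DMSO libraries and 98.2, 99.1 and 94.7 in the P3FI-90 libraries.

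**Figure D3:**
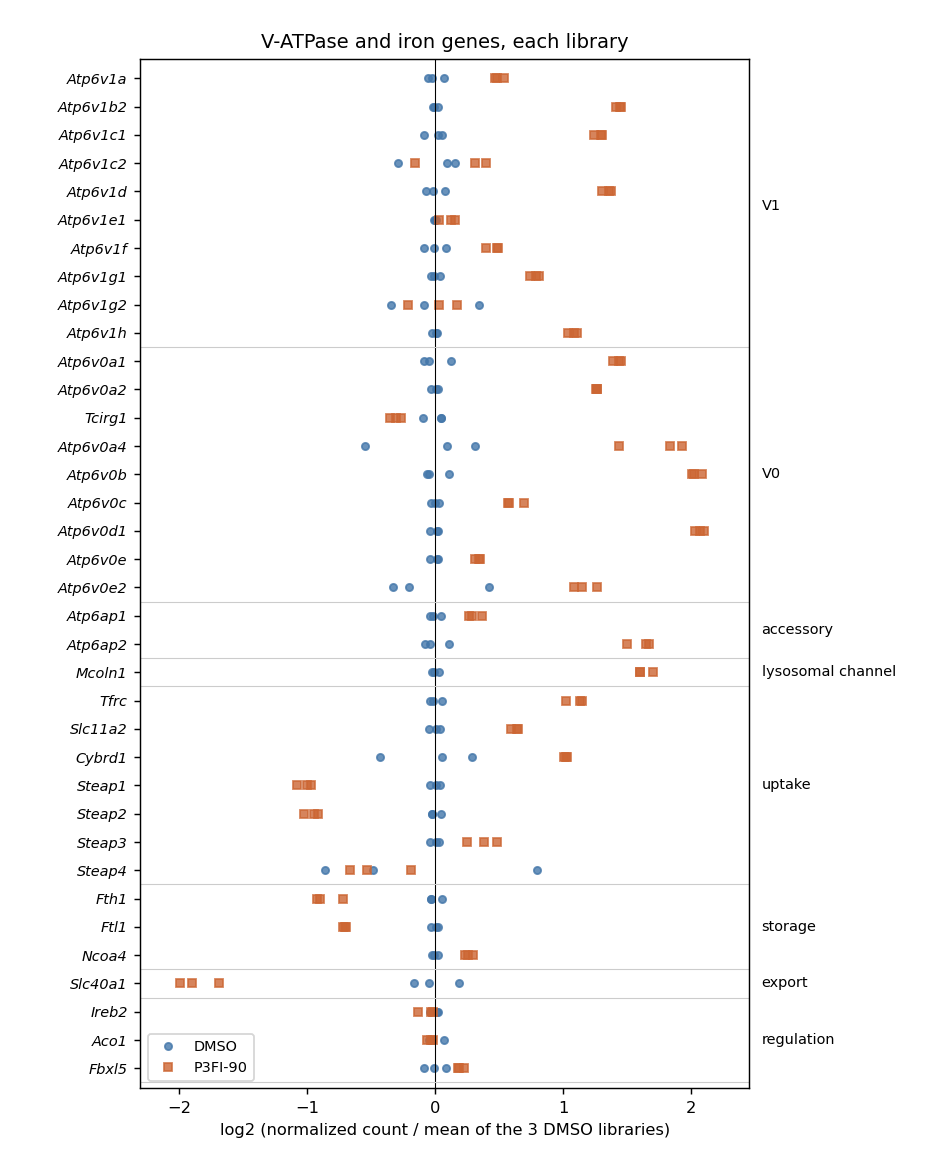
log2 ratio of each library's normalized count to the mean of the 3 DMSO libraries (x axis) for the 36 tested members (rows, grouped by role), with circles for DMSO and squares for P3FI-90 libraries. Most pump genes lie to the right of 0 in all 3 P3FI-90 libraries with Atp6v0d1 (2.07) and Atp6v0b (2.03) farthest, Tcirg1 lies to the left, and the iron genes lie on both sides.

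Levels per length differed widely between members before treatment. In DMSO the highest were Ftl1 with 1871 ± 38.8 and Fth1 with 764 ± 27.4 CPM per kilobase of transcript (mean ± SD, n = 3), where CPM is the count per 1000000 counts of effective library size. Atp6v0c (98 ± 2.24), Tfrc (91.7 ± 3.19) and Atp6v1g1 (82.6 ± 2.23) followed in that order, each clear of the next in all 3 libraries. Steap1, Atp6ap1, Atp6v1f, Atp6v0b, Atp6v1c1 and Atp6v1e1 came next, between 58.2 ± 1.55 and 47.8 ± 0.178, and each overlapped its neighbour in that order. Tcirg1 stood at 35.8 ± 1.94 and Atp6v0d1 at 25.8 ± 0.552. At the low end, Slc40a1 stood at 1.15 ± 0.147, and Atp6v0a4 and Cybrd1 at 0.0984 ± 0.0282 and 0.0949 ± 0.0229.

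After P3FI-90 the order among pump genes changed. Atp6v0b moved from the ninth to the third level among members, at 210.2 ± 6.2, and Atp6v0d1 from the 18th to the ninth, at 108 ± 2.76. Tcirg1 moved from the 14th to the 19th. Over the most abundant gene of each of the 13 subunits of V1 and V0, the SD of the log2 level was 0.762 to 0.777 in the DMSO libraries and 0.965 to 0.977 in the P3FI-90 libraries, so the subunit levels lay farther apart after treatment. In DMSO the highest of the 13, Atp6v0c, was 6.38 to 7.41 times the lowest, Atp6v1d, and in P3FI-90 the highest, Atp6v0b, was 8.06 to 8.70 times the lowest, Atp6v0e. These levels rest on transcript lengths from GENCODE M21 and treat 1 length per gene as fixed.

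**Figure D4:**
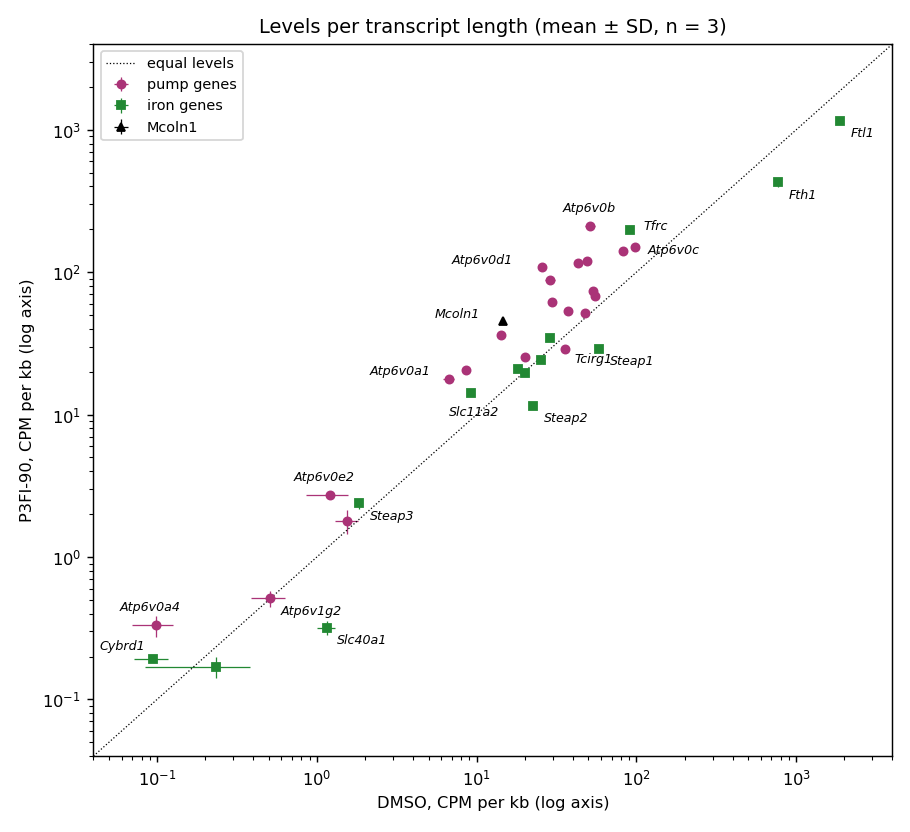
Level of each tested member in DMSO (x axis) and P3FI-90 (y axis) as CPM per kilobase of transcript on log axes, with points for means and bars for SD (n = 3) and a dotted line of equal levels. Both ferritin genes, at the upper right, and Tcirg1, Steap1 and Steap2 lie below the line, while Atp6v0b, Atp6v0d1 and Mcoln1 lie well above it.

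Genes that assemble or regulate the pump were examined beside the subunits. Of 14 such genes 13 were tested, of which 7 were higher and 4 lower with TMM, and 9 were higher and 2 lower with scaling by total counts. Over all genes tested, 39.9% were higher and 39.4% lower with TMM, and 6179 of 12288 were higher and 3641 lower with total counts. The largest rises among the 13 genes were in Wdr7, Tbc1d24 and Dmxl2. Wdr7 counted 462.5, 605 and 491 in DMSO and 2304, 2263 and 2424 in P3FI-90, a rise of 2.17 ± 0.0825 on the log2 scale (edgeR adjusted p = 1.24e-11). Dmxl2 counted 208.5, 188 and 214 in DMSO and 398, 401 and 444 in P3FI-90, a rise of 1.02 ± 0.118 (edgeR adjusted p = 1.91e-06). Tbc1d24 rose by 1.53 ± 0.0605 (edgeR adjusted p = 1.83e-11). The largest falls were in Ncoa7 (-0.57 ± 0.0714), Rnasek (-0.54 ± 0.211) and Rogdi (-0.45 ± 0.105), with edgeR adjusted p = 4.54e-06, 0.0295 and 0.00137. With scaling by total counts the calls of Rnasek (-0.33, edgeR adjusted p = 0.166) and Rogdi (-0.23, edgeR adjusted p = 0.0568) were lost. The median of the 13 genes was 0.36, between that of the pump and that of all genes.

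Promoter sequences of the raised genes are shown because a group of genes for the lysosome and the pump is known to carry the CLEAR element, an extended E-box read by TFEB and related factors. RefSeq promoters (GRCm38.p6, from 250 bases before to 50 bases after the start) were at hand for 32 of the 43 members, 20 of them pump genes or Mcoln1 and 12 iron genes. The palindrome TCACGTGA, searched on both strands, occurred in 4 of the 20 and in 0 of the 12, against 1.12% of all 27025 promoters and 2.21% of the 9592 promoters of genes tested. The shorter E-box CACGTG, which lies within TCACGTGA, also occurred in Atp6v0b, with 2 copies, and once more in Mcoln1, and was found in 8.09% of all promoters and 11.6% of those of genes tested. The windows below hold the motif in capitals, read 5′ to 3′ on the strand of the gene.
Atp6v0d1, chr8:105566050-105566079, minus strand: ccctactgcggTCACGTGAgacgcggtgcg
Atp6v0e, chr17:26676387-26676416, plus strand: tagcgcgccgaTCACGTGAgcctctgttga
Atp6v1a, chr16:44139373-44139402, minus strand: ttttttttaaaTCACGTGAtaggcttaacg
Mcoln1, chr8:3500462-3500491, plus strand: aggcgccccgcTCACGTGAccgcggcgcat
Atp6v0b, chr4:117887339-117887368, minus strand: ggtCACGTGgggtcggcgcatCACGTGcgc

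The palindrome TCACGTGA begins 46 bases before the annotated start in Mcoln1, 132 before it in Atp6v1a and 4 before it in Atp6v0d1. In Atp6v0e it begins at base 2 after the start. In Atp6v0b the copies of CACGTG begin 36 and 18 bases before the start. Of these annotated starts, only that of Atp6v0b is also the start of a GENCODE M21 transcript of its gene. That of Atp6v0d1 lies in no such transcript, so the distances depend on the annotation. The 4 genes with TCACGTGA had log2 fold changes of 2.07 (Atp6v0d1), 1.63 (Mcoln1), 0.50 (Atp6v1a) and 0.33 (Atp6v0e). These values ran from near the top to near the bottom of those of the pump genes that rose. Atp6v0b, which holds only the shorter CACGTG, had 2.03. Raised genes such as Atp6v0a1, whose annotated start also lies in none of its GENCODE M21 transcripts, did not hold these letters in this window. The core of the antioxidant response element, TGACNNNGC, on either strand, occurred in 4 of the 20 promoters (Atp6v0a1, Atp6v1a, Atp6v1e2 and Atp6v1g2) and in 2 of the 12 (Ncoa4 and Steap2), beside 14.0% of all promoters and 17.0% of those of genes tested. A match is a run of letters and not a measured binding site.

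Among the iron genes, the transferrin receptor and the ferrous iron transporter rose while both ferritin genes and the exporter fell. Tfrc (ENSMUSG00000022797) counted 16253, 17356 and 16489 in DMSO and 36559, 33943 and 37022 in P3FI-90. Every P3FI-90 library exceeded every DMSO library, and the log2 fold change was 1.10 ± 0.0376, or 2.15-fold. Slc11a2, the ferrous iron transporter of endosomes, counted 1895, 1786 and 1854 in DMSO and 2890.4, 2880.0 and 2785 in P3FI-90, a rise of 0.63 ± 0.0485. The heavy ferritin chain gene Fth1 (ENSMUSG00000024661), whose product oxidises iron for storage, counted 43490.1, 40891.5 and 40904 in DMSO and 22470.1, 25381 and 22091 in P3FI-90. The light chain gene Ftl1 (ENSMUSG00000050708) counted 64717, 62101.5 and 63691 in DMSO and 38635, 39075 and 39138 in P3FI-90. Both ferritin genes fell, with log2 fold changes of -0.84 ± 0.046 for Fth1 and -0.71 ± 0.0252 for Ftl1. Ftl1 is uncertain as a single locus, since 58.4% of its windows also occur in other genes, mainly ferritin pseudogenes, and the one of these in the table, Ftl1-ps1, had a log2 fold change of -0.71.

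Slc40a1 (ENSMUSG00000025993), the only known exporter of ferrous iron from the cell, was scarce, with normalized counts of 132, 155 and 121.5 in DMSO and 36.5, 42.3 and 34.3 in P3FI-90. Its log2 fold change of -1.85 ± 0.232 was the lowest among the 36 tested members. Ratios within a library do not depend on how libraries are scaled. Those below come from the same counts and mostly set a gene that rose against one that fell. They restate these changes and add no support. For every 100 counts of Fth1 there were 37.4, 42.4 and 40.3 counts of Tfrc in DMSO and 163, 134 and 168 in P3FI-90. For every 100 counts of Slc11a2 there were 6.94, 8.70 and 6.55 counts of Slc40a1 in DMSO and 1.26, 1.47 and 1.23 in P3FI-90. The chains of ferritin kept closer to each other, with 67.2, 65.8 and 64.2 counts of Fth1 for every 100 of Ftl1 in DMSO and 58.2, 65.0 and 56.4 in P3FI-90, where the second P3FI-90 library lay within the DMSO range. All pump genes together gave 44.9, 47.9 and 46.4 counts for every 100 of both ferritin genes in DMSO and 155, 145 and 154 in P3FI-90.

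**Figure D5:**
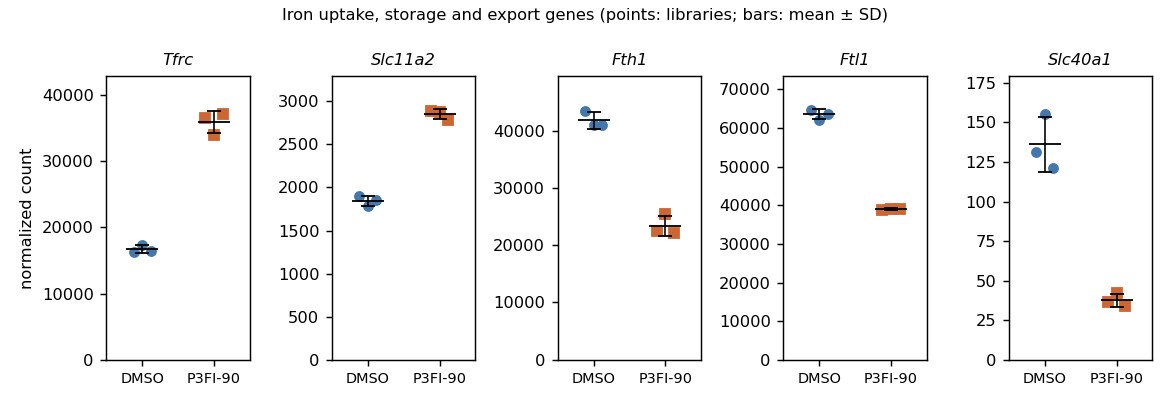
Normalized counts (y axes, from 0) of Tfrc, Slc11a2, Fth1, Ftl1 and Slc40a1 in each DMSO (circle) and P3FI-90 (square) library, with black bars for mean ± SD (n = 3). Tfrc and Slc11a2 lie higher and Fth1, Ftl1 and Slc40a1 lie lower in all 3 P3FI-90 libraries than in any DMSO library.

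The members that moved in these ways include those known for an IRE, so their elements are shown. In GENCODE M21 transcripts (GRCm38), a search of the sense strand for C, 5 bases, CAGTGN and 5 bases that pair with the first 5 found a match in the 5′ UTR of 23 of 12092 tested genes (0.19%) and in the 3′ UTR of 99 of 12120 (0.817%). Among members, Fth1, Ftl1 and Slc40a1 had 1 match each in the 5′ UTR and Tfrc had 4 in the 3′ UTR. Capitals mark the loop CAGTGN between the arms of the stem, read 5′ to 3′ on the strand of the gene, and each site lies in 1 exon.
Fth1 5′ UTR, chr19:9982732-9982760, plus strand: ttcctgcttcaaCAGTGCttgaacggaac
Ftl1 5′ UTR, chr7:45459779-45459807, minus strand: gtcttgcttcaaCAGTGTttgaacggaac
Slc40a1 5′ UTR, chr1:45925465-45925493, minus strand: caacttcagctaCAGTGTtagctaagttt
Tfrc 3′ UTR, chr16:32631219-32631247, plus strand: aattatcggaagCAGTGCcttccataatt
Tfrc 3′ UTR, chr16:32631598-32631626, plus strand: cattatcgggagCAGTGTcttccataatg
Tfrc 3′ UTR, chr16:32631663-32631691, plus strand: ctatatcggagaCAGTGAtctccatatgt
Tfrc 3′ UTR, chr16:32631710-32631738, plus strand: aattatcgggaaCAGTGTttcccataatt

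An IRE in a 3′ UTR is known to let iron regulatory proteins stabilise a messenger RNA, and one in a 5′ UTR to let them block its translation. The messenger with 3′ elements, Tfrc, had the log2 fold change 1.10, and those with 5′ elements had -0.84 (Fth1), -0.71 (Ftl1) and -1.85 (Slc40a1). Slc11a2 is also known for a 3′ element in some of its transcripts, but no match to these letters was found in the transcripts used. Counts of messenger RNA do not show translation, so the 5′ elements have no readout in these data.

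Of the 3 regulators, Fbxl5 alone was called with TMM. Ireb2, the gene of iron regulatory protein 2, counted 4994, 5204 and 5172 in DMSO and 5073, 4684 and 5011 in P3FI-90. Aco1, the gene of iron regulatory protein 1, counted 2843, 2619.5 and 2657 in DMSO and 2644, 2588 and 2680.2 in P3FI-90. Their groups overlapped and neither was called, with log2 fold changes of -0.06 ± 0.0394 for Ireb2 and -0.04 ± 0.0482 for Aco1 that turned to 0.16 and 0.18, both called, with scaling by total counts. With the upper quartile Ireb2 was called in the other direction (-0.10, edgeR adjusted p = 0.0372). Fbxl5, the ligase subunit that senses iron, counted 3526, 3753 and 3327 in DMSO and 4133, 3994 and 4035 in P3FI-90, a rise of 0.20 ± 0.0464. Its exons overlap those of Bst1 on the opposite strand, which had a log2 fold change of -1.62. Ncoa4, the ferritin receptor of autophagy, counted 4101.5, 4185 and 4059 in DMSO and 4908, 4835 and 5046 in P3FI-90 and rose by 0.26 ± 0.0356, with 17.9% of its windows shared with other genes.

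The genes of the STEAP family split. Steap1 counted 2441, 2574 and 2519.8 in DMSO and 1287, 1259 and 1187 in P3FI-90. Steap2, the most counted of the family in DMSO, counted 8424, 8868 and 8412 in DMSO and 4538, 4443 and 4228 in P3FI-90. Both fell, with log2 fold changes of -1.01 ± 0.0517 and -0.96 ± 0.0387. Steap3, the main endosomal ferrireductase of red cell precursors, counted 365, 369.7 and 352 in DMSO and 472.5, 431 and 507 in P3FI-90 and rose by 0.38 ± 0.101. Steap4 was near the limit of detection with 14.2, 44.6 and 18.4 in DMSO and 17.8, 16.2 and 22.5 in P3FI-90, and its groups overlapped, with a log2 fold change of -0.43 ± 0.488 that turned to 0.20 without the second DMSO library. For every 100 counts of Tfrc there were 51.8, 51.1 and 51.0 counts of Steap2 in DMSO and 12.4, 13.1 and 11.4 in P3FI-90. Cybrd1, a ferric reductase of the gut surface, had only 13.2, 21.7 and 18.4 normalized counts in DMSO and 35.6, 36 and 36.2 in P3FI-90. It was higher by 1.02 ± 0.38 (edgeR adjusted p = 0.0238), a call that was lost in 5 of the 6 fits that left out a library.

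Other genes of iron transport and control moved in both directions. Of 34 such genes 22 were tested, of which 7 were higher and 12 lower with TMM, and 8 higher and 9 lower with scaling by total counts. Over all genes tested, 39.9% were higher and 39.4% lower with TMM, and 6179 of 12288 were higher and 3641 lower with total counts. Mcoln3 and Bmp6, counted among the higher genes of the list, passed the filter only through their P3FI-90 libraries. The median of the 22 genes was -0.20 on the log2 scale. Flvcr1, a choline and heme transporter, counted 1107, 1156 and 1177 in DMSO and 2519.9, 2229.9 and 2455 in P3FI-90, a rise of 1.07 ± 0.0578 (edgeR adjusted p = 5.36e-10). Mcoln3, a relative of Mcoln1, had 2 counts over the DMSO libraries and 166 over the P3FI-90 libraries, or 72.5 times as many after scaling (exact 95% interval from 19.8 to 604). Bmp6, a signal that raises hepcidin in liver, had 3 and 95 counts, or 27.7 times as many (9.19 to 137). Both intervals cover counting error only, and the second DMSO library held all DMSO counts of both genes. Without that library Mcoln3 was at least 34-fold and Bmp6 at least 19.5-fold higher against a floor of 3 counts over the other DMSO libraries. The largest falls were in Cp, the ferroxidase ceruloplasmin, Lcn2, which binds iron-carrying siderophores, and Hfe, a partner of the transferrin receptor. Cp counted 3739, 4094 and 3569 in DMSO and 954, 1138 and 1037 in P3FI-90, with a log2 fold change of -1.86 ± 0.0699. Lcn2 counted 2691, 2971 and 2578 in DMSO and 855, 864 and 843 in P3FI-90, with a log2 fold change of -1.68 ± 0.0598. Hfe counted 117, 116 and 139.8 in DMSO and 28.1, 54.8 and 41.1 in P3FI-90, with a log2 fold change of -1.58 ± 0.266 (edgeR adjusted p = 1.09e-11, 6.27e-12 and 8.02e-05 in that order).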

How the data were processed

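The authors deposited whole-number read counts per gene for the 6 libraries, without normalization. Per the labels, total RNA was extracted with TRIzol, libraries were made with an Illumina mRNA-Seq kit and sequenced on a NovaSeq. The submitters' processing notes name CASAVA, HISAT2, StringTie and GRCm39, without stating a role, and counting tool, annotation and strandedness are not given in the sources used here. The table has 22401 rows, of which 285 assembled transcripts without a gene name (0.483% to 0.556% of a library's counts) were left out of library sizes and tests. Intervals and floors cover counting error only.

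In R 4.3.3, edgeR 4.0.16 was used with filterByExpr, TMM, the quasi-likelihood test, and p-values adjusted after Benjamini and Hochberg over 12288 genes, with a threshold of 0.05. Libraries of the same number were not treated as pairs, since their deviations from the group means correlated by -0.0214, 0.015 and 0.00491. Libraries of the same group differed from each other by more than counting noise (chi-square per gene 5.47 to 8.50). Transcript lengths, UTRs, shared 50-base windows and overlapping exons came from GENCODE M21 (GRCm38), which holds 21995 of the gene identifiers, and promoters from RefSeq (GRCm38.p6). No coordinate was converted between builds.

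The members and lists were chosen with earlier results of these data known. Values per library are given for members called with an absolute log2 fold change of at least 1, for the most abundant gene of each subunit or role, and for some of the remaining members whose group mean reached 10 normalized counts, and each other list names at most the 3 called genes with the largest changes in each direction. Alternatives were other scalings (DESeq2 size factors, total counts, upper quartile), a stricter filter (10 counts or more in each library) or none, limma 3.58.1 (voom, or log2(CPM + 1)) and DESeq2 1.42.0 as tests, a replicate block and each library left out. The fit was tested on simulated data. Some genes of the lists are not reported here by name.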

Additional observations from a re-analysis of the deposited data

How the results depend on the processing

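The 36 tested members were recomputed under 15 alternatives, and 517 of the 539 values kept their direction and side of the threshold, with 29 members doing so under every alternative that gave a value. With total counts, pump genes called lower went from 1 to 0, the pump median from 1.08 to 1.29 and the iron median from -0.05 to 0.17, while Ireb2 (0.16) and Aco1 (0.18) turned positive. With the upper quartile the medians were 1.04 and -0.086, Atp6v1g2 turned to -0.039 and Ireb2 (-0.096) was called lower. Without a filter the pump median was 0.92, its excess over the iron median 0.98, and Atp6v1g2 stood at -0.0045, with at least 10 counts in every library they were 0.95 and 0.98, and with limma on log2(CPM + 1) 0.77 and 0.82. Leaving out each library gave pump medians of 1.03 to 1.09, iron medians of -0.065 to 0.075 and an excess of 1.00 to 1.13. The iron median was positive only without the second DMSO library, without which Steap4 turned to 0.20 (from -0.73 to 0.20 over the libraries left out). Atp6v1g2 ranged from -0.14 to 0.21 when libraries were left out. Cybrd1 lost its call under the replicate block (log2 1.03, adjusted p = 0.0577 from edgeR), the one call the block changed, and without 5 of the 6 libraries in turn (adjusted p up to 0.0858 from edgeR). Atp6v1e1 was called in 5 alternatives. Raw counts in place of counts per length gave DMSO shares of 14.1% (Atp6v0a1), 23.9% (Atp6v0a2), 61.9% (Tcirg1), 97.2% (Atp6v0e) and 2.80% (Atp6v0e2), and P3FI-90 shares of 39.2% (Atp6v0a2), 34.4% (Tcirg1), 95.1% (Atp6v0e) and 4.89% (Atp6v0e2), with the same direction between groups. The cause of these shifts was not tested. Counting pseudogenes as members was not run, since no such row matched the rule. With 3 libraries per group, the low counts of Atp6v0a4, Cybrd1, Steap4 and Atp6v1g2 limit the precision of their fold changes.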

Other observations

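Genes of heme synthesis and breakdown were examined beside the iron genes. Of 13 such genes 12 were tested. With TMM 4 were higher and 8 lower, and with scaling by total counts 4 were higher and 6 lower. Among all genes tested, 39.9% were higher and 39.4% lower with TMM, and 6179 of 12288 were higher and 3641 lower with total counts. Hmox1, the inducible heme oxygenase that frees iron from heme, counted 576, 643 and 562 in DMSO and 2485, 2533 and 2492 in P3FI-90, a log2 fold change of 2.08 ± 0.06 (edgeR adjusted p = 8.58e-13). All 3 P3FI-90 libraries lay far above the DMSO libraries. The constitutive oxygenase Hmox2 counted 2496.5, 2769 and 2598 in DMSO and 1366, 1454 and 1278 in P3FI-90, with a log2 fold change of -0.94 ± 0.0598 (edgeR adjusted p = 3.08e-09). The next largest rises were in Uros (0.96 ± 0.159) and Cpox (0.62 ± 0.0386), enzymes of heme synthesis. Blvra, a biliverdin reductase, fell, with a log2 fold change of -0.79 ± 0.0713 (edgeR adjusted p = 1.33e-07).

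All 28 genes of iron-sulfur cluster assembly examined were tested, of which 11 were higher and 10 lower with TMM, and 13 higher and 7 lower with scaling by total counts. With TMM, 39.9% of all genes tested were higher and 39.4% lower, and with total counts 6179 of 12288 were higher and 3641 lower. The shares of this list were close to these with both scalings. Fdxr, ferredoxin reductase, counted 652, 798.5 and 811 in DMSO and 139, 156 and 154 in P3FI-90, with a log2 fold change of -2.33 ± 0.117 (edgeR adjusted p = 2.39e-10). Nfs1, the cysteine desulfurase that supplies the sulfur, counted 2087, 2176 and 2157.5 in DMSO and 752, 872 and 823 in P3FI-90, with a log2 fold change of -1.39 ± 0.0614 (edgeR adjusted p = 5.97e-11). Fdx2, the ferredoxin of the pathway, counted 121, 725 and 172.5 in DMSO and 28.1, 41.4 and 50 in P3FI-90. Its log2 fold change of -3.08 ± 0.56 rested in part on the second DMSO library and was -1.89 without it. The largest rises were in Nubp2 (0.71 ± 0.0616), Iba57 (0.59 ± 0.163) and Lyrm4 (0.52 ± 0.141).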
